A study of Schmidtea mediterranea with 64 samples.

Results

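A set of 212 planarian transcripts was defined that are expressed in the whole animal, are absent or below 1 RPKM (reads per kilobase of transcript per M, or mega, reads) in sorted stem cells of the *mll1/2* experiment, and were higher after 9 days of *set1* RNA interference (RNAi) without a matching change after 9 days of *mll1/2*(RNAi). The transcripts were selected on those measured changes and on mean levels. In all, 28173 transcript IDs were listed across the 4 expression tables, of which 24678 were present in both whole-worm tables. Of these, 15284 had a mean level between 1 and 50 RPKM in both, and 6369 of those were absent from the *mll1/2* X1 table or averaged below 1 RPKM in it. These 6369 are called whole-worm-only here. The rule then asked for a *set1*(RNAi) minus *unc22*(RNAi) difference at day 9 of at least 0.5 on the log2(RPKM + 0.5) scale, which 289 whole-worm-only transcripts met, and for an *mll1/2*(RNAi) day 9 difference within 0.4 in either direction. That second condition removed 39 transcripts that were lower and 38 that were higher after *mll1/2*(RNAi), and left the 212, or 3.33% of the whole-worm-only transcripts.

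Set1 and Mll proteins belong to families of enzymes that methylate histone H3 at a lysine found at the promoters of active genes, and they act within multi-subunit complexes. In planarians, X1 cells are the cycling stem cells (neoblasts) that flow cytometry separates by their DNA content, and they replace every tissue of the adult. A transcript that is present in the whole animal and near absent from X1 cells would be, by that pattern, carried mainly by other cells, most of which are post-mitotic and differentiated.

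The animals were *Schmidtea mediterranea* fed liver paste that contained bacteria expressing double-stranded RNA. The *set1* experiment compared *set1*(RNAi) with *unc22*(RNAi) at 6 and 9 days, and the *mll1/2* experiment compared *mll1/2*(RNAi) with its own *unc22*(RNAi) at 9 and 12 days. The *unc22* RNA is named after a nematode muscle gene and served as the control, so control animals had also received double-stranded RNA. PolyA RNA was taken from whole worms or from Hoechst-stained, sorted X1 cells, with 4 libraries in each of the 16 groups. The labels do not say whether the 4 libraries of a group came from separate animals, so p-values measure only the spread between these libraries. Whole-worm libraries held 16.4 to 20.8 M reads in the *set1* experiment and 16.4 to 22.5 M in the *mll1/2* experiment, and X1 libraries of the *set1* experiment held 12.6 to 18.3 M. The IDs are not paired with gene names in the files used here, so the knockdown of each target, the markers of each tissue and the functions of the 212 transcripts were not examined.

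At day 9, the contrast that chose them, the 212 transcripts differed by 0.50 to 3.17 log2 units with a median of 0.60. The difference was 0.5 to 0.75 for 165 transcripts, 0.75 to 1 for 36 and at least 1 for 11. The 5 transcripts just inside the threshold had differences of 0.50020 to 0.50341, and the 5 just outside had 0.49610 to 0.49951. In this contrast limma called 195 of the 212 higher at an adjusted p below 0.05, against 19.2% of all transcripts tested, and in 156 all 4 *set1*(RNAi) libraries lay above all 4 controls (16.8% of all tested). The 17 that were not called had low levels, with a median of 1.35 RPKM, and a median length of 357 bases. The median level of the 212 was 2.24 RPKM in *unc22*(RNAi) and 3.87 RPKM in *set1*(RNAi), and by the plain ratio of group mean RPKM, with no added constant, 30 transcripts were at least 2-fold higher. All these day 9 values describe the selection and test nothing.

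The transcript with the largest day 9 difference, 489 bases long, stood at 13.2, 13.9, 14.9 and 17.6 RPKM in *set1*(RNAi) and at 0.774, 1.12, 1.47 and 1.55 RPKM in the controls of that day. At day 6 it had 1.16, 2.21, 2.78 and 2.91 RPKM in *set1*(RNAi) and 1.65, 1.77, 1.97 and 2.21 RPKM in *unc22*(RNAi), and the groups overlapped. The transcript furthest from its controls at day 9 did not differ from them beyond the spread at day 6 (log2 difference 0.16, SE 0.19, limma adjusted p = 0.642). The transcript with the highest level was 1000 bases long. Its day 6 levels were 44.0, 48.2, 50.03 and 51.4 RPKM in *set1*(RNAi) against 38.3, 39.1, 39.1 and 40.6 RPKM in the controls, a difference of 0.30 (SE 0.05, limma adjusted p = 0.000441), and its day 9 means were 57.5 ± 2.22 against 39.3 ± 2.15 RPKM (SD, n = 4).

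The day 6 libraries of the same experiment were not used to choose the transcripts by their change, although they entered the mean levels of the rule. They gave the main comparison that is independent of the choice by change. At day 6, 42 of the 212 (19.8%) were called higher after *set1*(RNAi) and 1 (0.472%) was called lower by limma at an adjusted p below 0.05. Among all 19655 transcripts tested the shares were 5.91% higher and 10.6% lower, and among the 6369 whole-worm-only transcripts they were 5.04% and 6.03%. Restricted to the 5150 whole-worm-only transcripts that also met the *mll1/2* day 9 condition, they were 4.14% and 4.52%. The median difference of the 212 was 0.18 log2 units, with a range of -0.58 to 0.80, against 0.02 for whole-worm-only transcripts and -0.00097 for all tested. The sign was positive for 167 and negative for 45. All 4 *set1*(RNAi) libraries were above all 4 controls for 49 of the 212 (8.01% of all tested), and all below for 1 (12.2% of all tested). Without *set1*(RNAi) replicate 4 of day 6, 26 of the 212 were called higher, against 3.99% of all tested. The error of the main fit was pooled over both days, and with only the 8 libraries compared 36 were called higher (5.12% of all tested). Whole worms are a mixture of cells, so a larger share of the cells that carry a transcript and more of it per cell cannot be told apart in these data.

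The day 6 differences were smaller than those at day 9. Of the 212, 15 reached 0.5 and 0 reached 1 at day 6, and 3 had a larger difference at day 6 than at day 9. The 42 transcripts called higher at day 6 differed by 0.14 to 0.80 with a median of 0.32, and all 42 were also called at day 9, where their median was 0.65. The 170 others had medians of 0.15 at day 6 and 0.60 at day 9. The difference between days was not tested, because day 9 chose the transcripts. A mirror-image set, made of the 222 whole-worm-only transcripts that were lower by at least 0.5 at day 9 under the same *mll1/2* condition, is given for scale. Of these, 112 (50.5%) were called lower at day 6, with a median difference of -0.36. The difference between the 19.8% and the 50.5% was not tested.

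Every library showed the shift. Relative to the mean of the *unc22*(RNAi) libraries of the same day, the median of the 212 transcripts in the 4 *set1*(RNAi) libraries of day 6 was 0.17, 0.19, 0.20 and 0.22, while the 4 control libraries lay between -0.000014 and 0.02. At day 9 the 4 *set1*(RNAi) libraries lay between 0.63 and 0.65 and the controls between -0.02 and 0.02. At day 6 the *set1*(RNAi) and control libraries did not overlap, and at day 9 the separation follows from the selection. Whole-worm-only transcripts as a whole had medians of 0.0018 to 0.04 in the day 6 *set1*(RNAi) libraries.

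**Figure D1:**
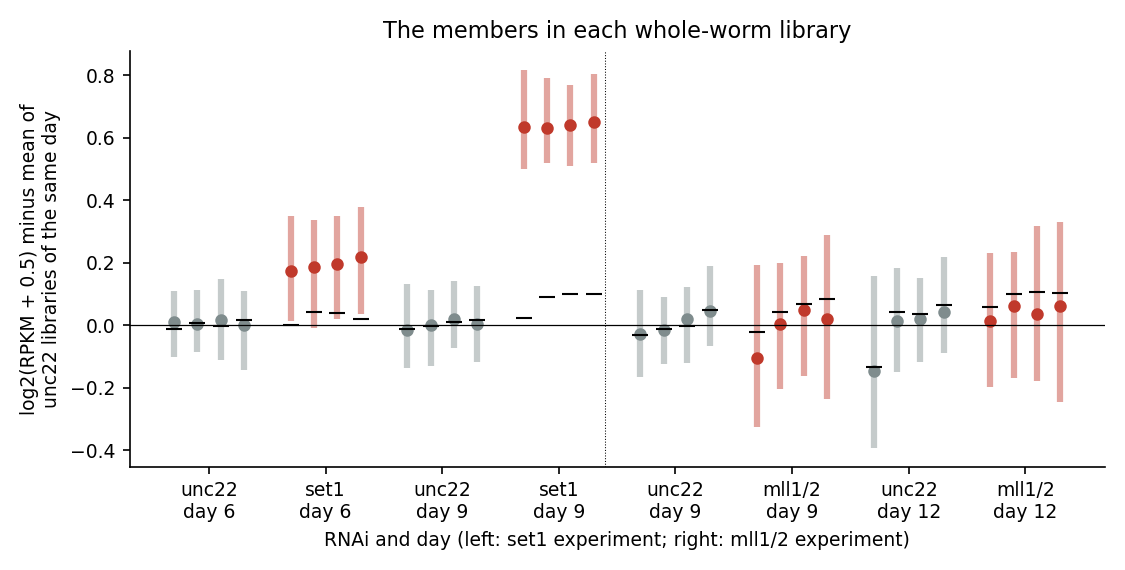
Each vertical bar is 1 whole-worm library and spans the middle 50% of the 212 transcripts, with a dot at their median and a black dash at the median of all 6369 whole-worm-only transcripts, as log2(RPKM + 0.5) minus the mean of the same-day *unc22* libraries. Dots of the *set1* day 6 libraries sit at 0.17 to 0.22, those of day 9 at 0.63 to 0.65, and those of *mll1/2* day 12 at 0.01 to 0.06.

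In absolute terms, the group median of the 212 transcripts was 2.46 RPKM in *unc22*(RNAi) and 2.74 RPKM in *set1*(RNAi) at day 6. Between the days, the *set1*(RNAi) level was higher at day 9 for 201 of the 212, with a median step of 0.35, against 0.03 for whole-worm-only transcripts. The control level was lower at day 9 for 146 of the 212, with a median step of -0.10, against -0.01 for whole-worm-only transcripts. The day 9 *set1*(RNAi) and control libraries entered the rule. A high day 9 *set1*(RNAi) level and a low day 9 control both favour selection, so the steps between days are a description. Set against all 8 controls of both days, the day 9 *set1*(RNAi) difference had a median of 0.57, and 152 of the 212 reached 0.5. This comparison reuses the day 9 libraries of the rule, so it is a description and no check of the selection.

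**Figure D2:**
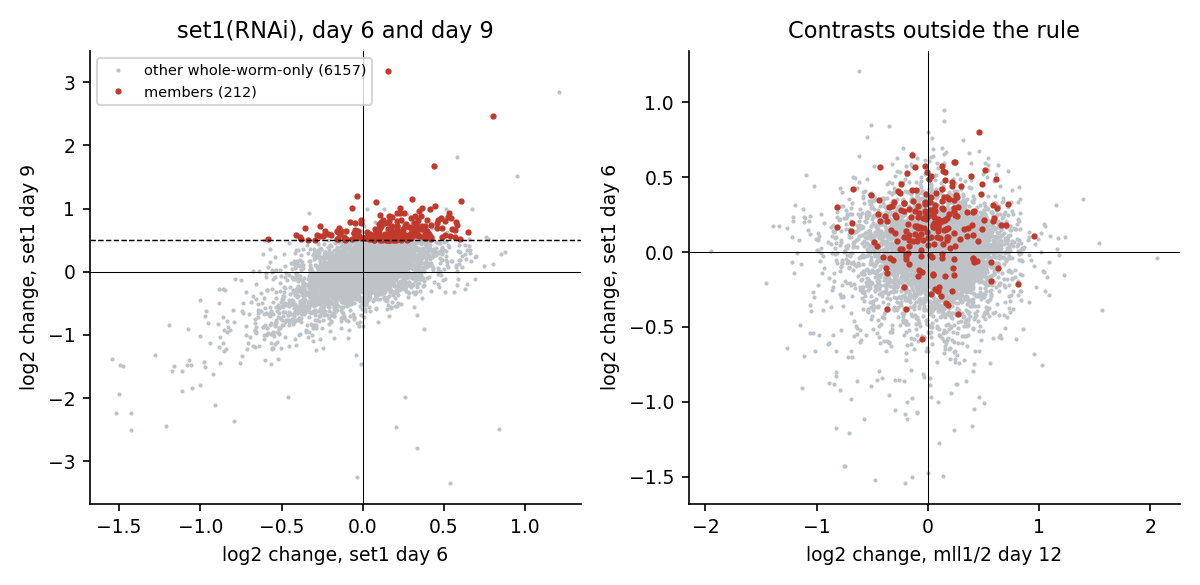
Each point is a whole-worm-only transcript, red for the 212 and grey for the other 6157; axes are log2(RPKM + 0.5) differences from *unc22*(RNAi), and the dashed line at 0.5 is the threshold of the rule. On the left the red points lie above the line by selection and 167 lie right of 0 at day 6; on the right, day 6 of *set1*(RNAi) is plotted against day 12 of *mll1/2*(RNAi), where 120 of the 212 lie right of 0.

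Calls at day 6 were more frequent at higher levels. The 212 had a median of 28.4 reads per control library in the *set1* whole-worm table (range 3.75 to 2451), and 78 averaged below 20 reads. Of the 64 transcripts with a mean level of 1 to 2 RPKM, 4 (6.25%) were called higher at day 6, against 1.77% of whole-worm-only transcripts in that class. The shares were 12.5% of 80 against 2.84% at 2 to 5 RPKM, 34.8% of 23 against 4.94% at 5 to 10 RPKM, and 44.4% of 45 against 13% at 10 to 50 RPKM. The median day 6 difference of the 212 did not follow the same order and was 0.10, 0.22, 0.18 and 0.15 in the 4 classes, while its median standard error went from 0.20 in the lowest class to 0.07 in the highest. In whole-worm-only transcripts the median difference was 0.0046, 0.02, 0.02 and 0.05. The transcripts called at day 6 had a median level of 8.81 RPKM and a median length of 1190 bases, against 2.66 RPKM and 539 bases for the rest.

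**Figure D3:**
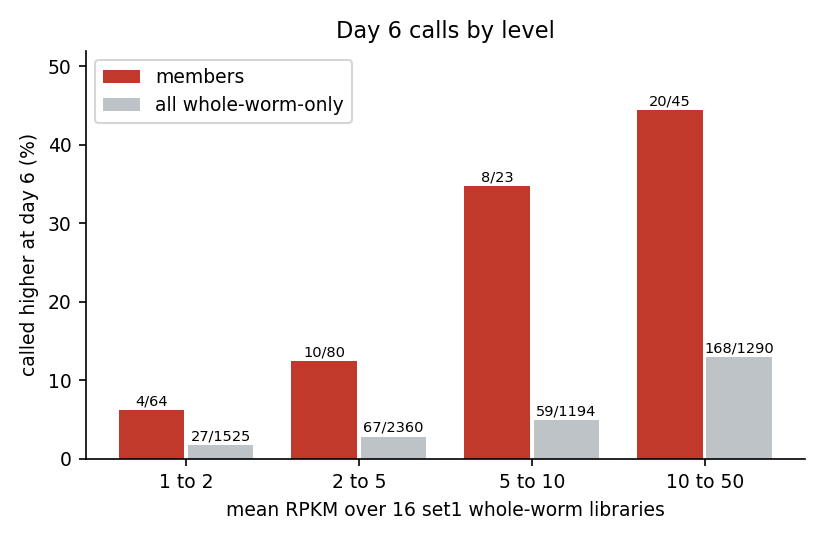
Bars give the percentage of transcripts called higher at day 6 of *set1*(RNAi) in 4 classes of mean RPKM, red for the 212 and grey for all 6369 whole-worm-only transcripts, with the numbers called and present above each bar. The red bars go from 6.25% to 44.4% and the grey bars from 1.77% to 13%.

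The 212 transcripts were short, a property the rule did not use. Their median length was 597 bases (middle 50%, 404 to 1140), against 1184 bases for whole-worm-only transcripts and 1193 for all tested. The largest class was under 500 bases and held 83 of them (39.2%, against 18% of whole-worm-only transcripts), while 63 were 500 to 1000 bases (29.7% against 25.4%), 46 were 1000 to 2000 bases (21.7% against 32.2%) and 20 were longer (9.43% against 24.4%). The median standard error of the day 6 difference was 0.19 in the shortest class and 0.07 in the longest. In the 4 length classes, from short to long, 6, 10, 16 and 10 transcripts were called higher at day 6, which is 7.23%, 15.9%, 34.8% and 50% of them, against 4.01%, 3.34%, 5.22% and 7.32% of whole-worm-only transcripts. Their median day 6 difference was 0.14, 0.21, 0.17 and 0.24. The part of this larger error in the length of the 212 was not tested. Levels were also lower, with a median of 2.90 RPKM in the *set1* whole-worm table against 3.69 for whole-worm-only transcripts.

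Among transcripts called higher at day 6 with no overlap between groups, SMED30020154 (321 bases) had the largest difference. Its day 6 levels were 1.36, 1.60, 1.44 and 2.95 RPKM in *set1*(RNAi) and 0.642, 0.739, 1.00 and 0.841 RPKM in *unc22*(RNAi), from 9, 9, 9 and 18 reads against 4, 5, 6 and 5. The means were 1.84 ± 0.749 and 0.806 ± 0.154 RPKM (SD, n = 4), a log2 difference of 0.80 (SE 0.19, limma adjusted p = 0.00722), and it was called under each of the 19 alternatives (limma adjusted p of 0.0046 to 0.033). At day 9 it stood at 5.96, 6.47, 6.57 and 3.78 RPKM against 0.559, 0.628, 0.737 and 0.511 RPKM. It was the transcript with the next largest day 9 difference, 2.46. In the *mll1/2* experiment its day 12 levels of 2.71 to 4.92 RPKM overlapped the controls at 2.24 to 4.05 RPKM (difference 0.46, SE 0.21, limma adjusted p = 0.206). Of the 19 alternatives, only array weights called it there (difference 0.55, limma adjusted p = 0.0397). It was listed in neither X1 table.

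SMED30021748 (586 bases) had the next largest day 6 rise. It stood at 2.74, 2.62, 2.63 and 2.24 RPKM in *set1*(RNAi) and at 1.76, 2.02, 1.10 and 1.29 RPKM in *unc22*(RNAi). All *set1*(RNAi) libraries were above all controls, and the difference was 0.60 (SE 0.15, limma adjusted p = 0.00997), called under each of the 19 alternatives (0.0044 to 0.039). At day 9 its means were 3.62 ± 0.442 and 1.41 ± 0.382 RPKM (SD, n = 4). At day 12 of *mll1/2*(RNAi) the means were 2.20 ± 0.313 and 1.85 ± 0.683 RPKM (SD, n = 4), which overlapped (limma adjusted p = 0.635). In the *mll1/2* X1 table it had 1 read in each of 2 libraries and 0 in the others, and the *set1* X1 table does not list it.

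SMED30001015 (301 bases) was the transcript called lower at day 6. Its levels were 2.26, 2.27, 1.71 and 2.27 RPKM in *set1*(RNAi) and 4.45, 2.68, 4.45 and 2.51 RPKM in *unc22*(RNAi), from 10 to 14 reads against 14 to 26. The difference was -0.58 (SE 0.18, limma adjusted p = 0.0313), and every *set1*(RNAi) library lay below every control. The call was lost without any of 4 libraries, with limma adjusted p of 0.0989 and 0.0512 without *set1* replicates 3 and 4, and of 0.106 without *unc22* replicate 1 or 3. At day 9 it stood at 3.24 to 4.24 RPKM in *set1*(RNAi) and 1.84 to 3.45 RPKM in the controls, and the groups overlapped. Its day 9 difference of 0.51 put it just inside the rule.

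SMED30026828 (424 bases) had the lowest *mll1/2* day 12 difference. Its levels were 0.243, 1.03, 0.876 and 0.446 RPKM in *mll1/2*(RNAi) and 0.734, 0.985, 2.46 and 2.15 RPKM in *unc22*(RNAi), from 2 to 9 reads against 5 to 21. The groups overlapped, and the difference of -0.82 (SE 0.31) was not called (limma adjusted p = 0.130). In the *set1* experiment it had 3.51 ± 0.662 against 3.11 ± 0.971 RPKM at day 6 (SD, n = 4), where the groups overlapped as well, and 4.49 ± 0.723 against 2.93 ± 0.454 RPKM at day 9.

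**Figure D4:**
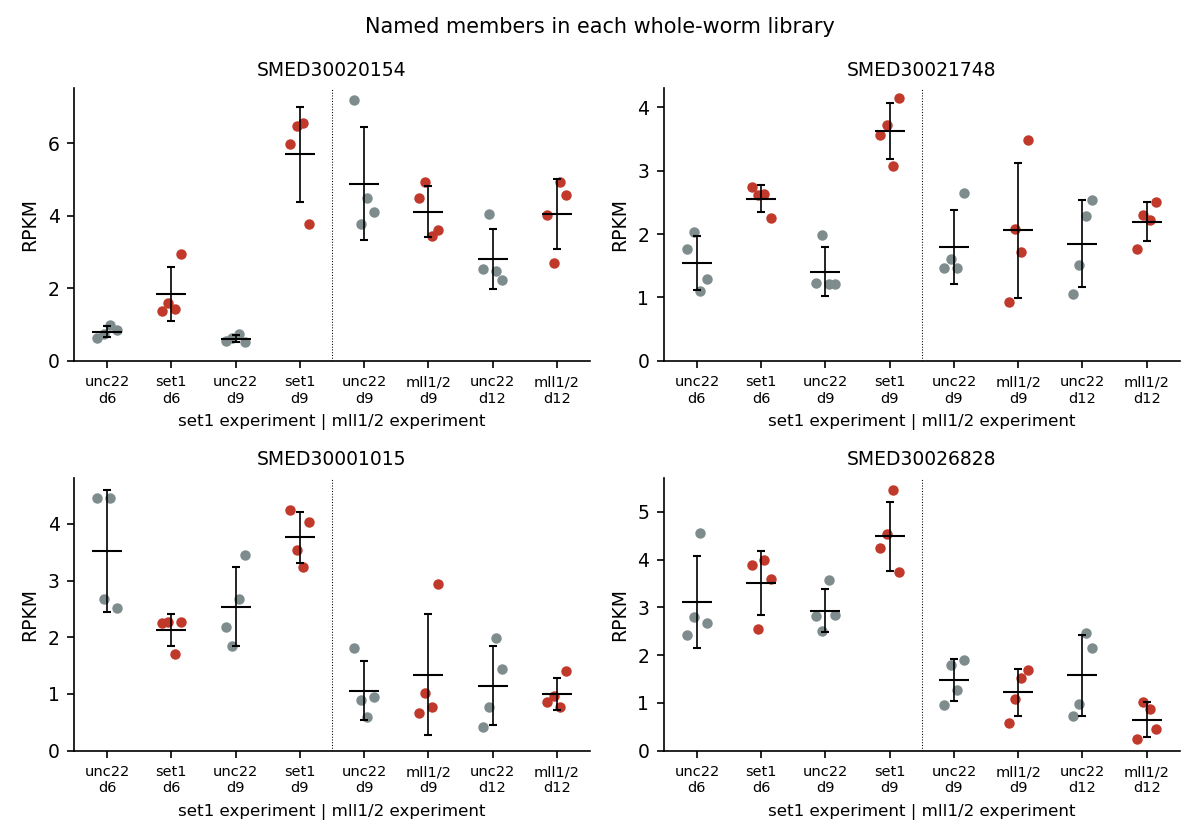
Points are the RPKM of the 4 named transcripts in each whole-worm library (grey for *unc22*, red for the knockdown), with the mean as a black dash and the SD as the error bar (n = 4); the dotted line separates the *set1* experiment from the *mll1/2* experiment. SMED30020154 stands at 0.511 to 1.00 RPKM in the *set1* experiment controls and at 3.78 to 6.57 RPKM after 9 days of *set1*(RNAi), while SMED30001015 is below its controls at day 6.

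The *mll1/2* knockdown at day 9 was kept small by the rule, and there 2 of the 212 were called higher (4.01% of all tested). The day 12 change was not used by the rule, although the day 12 libraries entered its mean levels. At day 12, 11 of the 212 (5.19%) were called higher and 3 (1.42%) lower by limma. The shares were 2.57% and 3.35% of all 18443 tested, 4.07% and 2.72% of whole-worm-only transcripts, and 2.62% and 0.835% of those that met the *mll1/2* day 9 condition. The median difference of the 212 was 0.05, against 0.09 for whole-worm-only transcripts, and 120 were positive. All *mll1/2*(RNAi) libraries were above all controls for 17 (7.94% of all tested) and below for 5 (6.93%). Library medians of the 212 ran from 0.01 to 0.06 in *mll1/2*(RNAi). In *unc22*(RNAi) they were 0.01 to 0.04 in replicates 2 to 4 and -0.15 in replicate 1, so the groups overlapped only through the other 3 controls. Without that control library the median of the 212 was -0.0046, and 12 were called higher and 4 lower. Without *mll1/2* replicate 4 there were 5 higher and 3 lower, when 0.737% of all tested were called higher. Without *mll1/2* replicate 3 or *unc22* replicate 3 there were 6 and 2 (0.624% and 1.26% of all higher), and without *unc22* replicate 2 there were 7 and 2 (1.18%), so the counts fell together with those of all transcripts.

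The 11 transcripts called higher at day 12 of *mll1/2*(RNAi) differed by 0.37 to 0.95 there and by -0.07 to 0.49 at day 6 of *set1*(RNAi). The largest, 2717 bases long, stood at 48.0, 60.0, 66.0 and 65.5 RPKM in *mll1/2*(RNAi) and at 23.8, 30.6, 31.6 and 37.5 RPKM in its controls, with no overlap (difference 0.95, SE 0.13, limma adjusted p = 0.00153). At day 6 of *set1*(RNAi) it stood at 33.0 to 36.0 RPKM against 29.1 to 33.7 RPKM and was not called (difference 0.11, limma adjusted p = 0.232), while at day 9 it had 57.3 to 69.1 RPKM against 36.5 to 39.9 RPKM. The lowest of the 3 called lower, 3276 bases long, moved in opposite directions in the experiments. It stood at 2.48 to 4.00 RPKM in *mll1/2*(RNAi) at day 12 against 5.76 to 7.27 RPKM (difference -0.81, SE 0.14, limma adjusted p = 0.00413), and at 6.75 to 8.06 RPKM in *set1*(RNAi) at day 6 against 5.65 to 6.57 RPKM (difference 0.30, SE 0.08, limma adjusted p = 0.0187). Of the 42 transcripts called higher at day 6 of *set1*(RNAi), 2 were also called higher at day 12 of *mll1/2*(RNAi), 24 were positive there, and their median was 0.05. Of whole-worm-only transcripts, 4.07% were called higher and 62.5% were positive there, with a median of 0.09.

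The *set1* X1 table was not used by the rule and gives a check of the label whole-worm-only. It does not list 129 of the 212 (60.8%, against 45.8% of whole-worm-only transcripts). Every listed ID has at least 61 reads over the 16 libraries, and a short transcript needs a higher RPKM to reach such a total. The 212 were shorter, with a median of 597 bases against 1184, and the part of length in these shares was not tested. The 83 that are listed had a median level of 0.852 RPKM and a highest level of 2.57 RPKM, and 32 of the 212 (15.1%, against 10.5%) averaged at least 1 RPKM over the 16 libraries. For 14 of these the 8 control libraries averaged at least 1 RPKM, and the other 18 reached 1 RPKM only through the *set1*(RNAi) libraries. The 15.1% against 10.5% therefore rests partly on the knockdown. By the control libraries alone, 14 of the 212 averaged at least 1 RPKM, against 523 of the 6369 whole-worm-only transcripts, which is a smaller share of the 212. In the *mll1/2* X1 table, which the rule used, 157 were listed with a median of 0.256 RPKM and 55 were not. The label therefore does not hold in the *set1* X1 table for the 14 transcripts with control levels of 1.03 to 1.81 RPKM, whose whole-worm means ranged from 1.21 to 36.3 RPKM. For 4 of the 212 the mean in the *set1* X1 table was above that in the *set1* whole-worm table, which may have been normalised separately.

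Levels of the 83 listed transcripts in X1 cells are given as a description, because every ID of this table has at least 61 reads over its 16 libraries and some may be listed through the *set1*(RNAi) libraries. For the 83, the group median was 0.533 RPKM in *unc22*(RNAi) and 0.798 RPKM in *set1*(RNAi) at day 6, and 0.568 against 1.19 RPKM at day 9. The *set1*(RNAi) group mean was the higher of the pair for 69 of the 83 at day 6 (83.1%) and 75 at day 9 (90.4%), against 64.2% and 66.6% of the 3449 whole-worm-only transcripts listed. Relative to the control mean, library medians of the 83 at day 9 were 0.54, 0.59, 0.60 and 0.62 in *set1*(RNAi) and -0.14 to 0.11 in *unc22*(RNAi), while those of the 3449 were 0.13 to 0.28 in *set1*(RNAi). Of the 32 with a mean of at least 1 RPKM, limma called 6 higher at day 6 (6.64% of all tested) and 21 higher and 1 lower at day 9 (18% and 22.2% of all tested). The 18 that passed this filter only through the knockdown had to be higher there, so these counts describe them and carry no weight. Without *unc22* library d of day 9 there were 14 called higher (17.6% of all tested), and without *set1* library b or d of day 6 there were 3 (4.64% and 4.3% of all tested).

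The 14 transcripts with control means of at least 1 RPKM avoid that selection. The transcripts they are compared with also had to average at least 1 RPKM over the 16 libraries. Of the 523 whole-worm-only transcripts with such control means, 462 did. Those dropped had low *set1*(RNAi) levels, so the comparison shares still depend on the knockdown. At day 6, 2 of the 14 (14.3%) were called higher, and the median difference of the 14 was 0.04. The shares called higher were 2.81% of whole-worm-only transcripts and 5.87% of all transcripts under both filters. At day 9, 6 of the 14 were called higher and 1 lower, with a median difference of 0.47. Under both filters, 11.7% of whole-worm-only transcripts and 16.1% of all transcripts were called higher there. Library medians of the 14 at day 9 were 0.29, 0.45, 0.53 and 0.71 in *set1*(RNAi) and -0.16 to -0.02 in *unc22*(RNAi). The largest rise among the 14, in a transcript of 374 bases, was from 0.133, 0.363, 0.634 and 0.664 RPKM to 3.48, 3.73, 4.56 and 5.85 RPKM (difference 2.39, SE 0.24, limma adjusted p = 8.13e-07), although its day 6 controls stood at 1.02 to 2.35 RPKM. The transcript called lower, 1268 bases long, had 0.714 to 1.30 RPKM in *set1*(RNAi) X1 cells at day 9 against 1.98 to 2.45 RPKM (difference -0.78, SE 0.26, limma adjusted p = 0.0239). In whole worms of day 9, the contrast of the rule, the same transcript stood at 22.1 to 24.8 RPKM against 15.05 to 16.8 RPKM. Of the 42 transcripts called higher in whole worms at day 6, 18 were listed in the *set1* X1 table and 7 averaged at least 1 RPKM there. In X1 cells at day 9, 4 were called higher (18% of all tested). These 4 are not among the 14. Their control means were below 1 RPKM, they passed the filter only through the *set1*(RNAi) libraries, and their calls carry no weight.

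**Figure D5:**
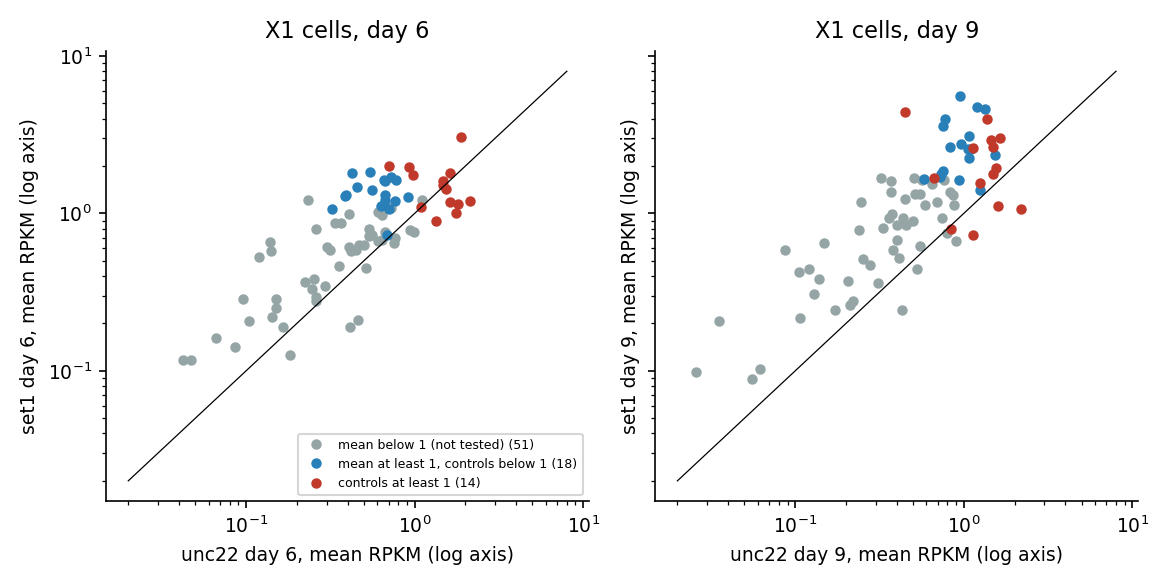
Each point is 1 of the 83 transcripts listed in the *set1* X1 table, placed by its mean RPKM (n = 4, log axes) in *unc22* and *set1* X1 cells at day 6 (left) and day 9 (right), and the line marks equal levels. Above the line lie 69 of the 83 at day 6 and 75 at day 9, and the 14 red points are those whose controls averaged at least 1 RPKM.

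The control levels of the experiments were also set side by side, with the limit that the tables may have been normalised separately. The *unc22*(RNAi) level of day 9 was higher in the *mll1/2* experiment than in the *set1* experiment for 142 of the 212, with a median difference of 0.15 log2 units, against -0.01 for whole-worm-only transcripts. Day 9 *set1*(RNAi) levels were above the day 9 controls of the *mll1/2* experiment for 190 of the 212, with a median difference of 0.51. The same held for 3735 of the 6369 whole-worm-only transcripts, with a median difference of 0.09. For SMED30020154 the day 9 controls of the *mll1/2* experiment, at 3.76 to 7.18 RPKM, spanned its level after 9 days of *set1*(RNAi). The day 9 *set1*(RNAi) libraries and the day 9 controls of both experiments entered the rule, and these values are a description.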

How the data were processed

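PolyA RNA of whole worms and X1 cells was sequenced from TruSeq libraries. The authors deposited RPKM values in 4 tables, 1 per experiment and tissue, with 1 column per library. The submitters' processing notes name CASAVA 1.8.2, Bowtie and edgeR. The settings, transcript set and counting method were not given in the sources used here. Reads shared by near-identical transcripts are therefore uncertain. No deposited value column was left out (0 unused). The *mll1/2* X1 table served only for levels.

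Samples were grouped by their labels. Columns of the *set1* X1 table bear the titles of the whole-worm samples, so their numbers were not tied to X1 samples, and those libraries were used by group and carry letters. The steps in the values gave whole reads (100% within 0.01 read) and transcript lengths, used for depth, length and an alternative fit.

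Within each table, limma 3.58.1 in R 4.3.3 fitted 1 mean per group to log2(RPKM + 0.5) over 16 libraries (eBayes with trend, two-sided, Benjamini-Hochberg over all IDs with a mean of at least 1 RPKM, called at an adjusted p below 0.05). This scale understates changes of low transcripts. Other steps used Python 3.11.15, pandas 2.3.3 and numpy 2.4.6, and the fit was tested on simulated data. Deviations from group means correlated at 0.17 to 0.41 in the 4 same-numbered pairs at day 12 of the *mll1/2* experiment. Differently numbered pairs there reached 0.47 (*mll1/2* replicate 1 with *unc22* replicate 2), so the replicate number was not shown to be a pairing. Same-numbered pairs ran from -0.415 to 0.365 at day 9 of that experiment. In the *set1* experiment they ran from -0.0126 to 0.0802 at day 6 and from 0.00809 to 0.119 at day 9. The main fits used no pairing, and a replicate block was only an alternative fit of both whole-worm experiments.

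The 212 transcripts, the sets they are compared with and the tests were chosen with earlier results of these data known. The named IDs are, by rule, the 2 largest day 6 rises with no overlap between groups, the lowest day 6 difference and the lowest *mll1/2* day 12 difference. Transcripts described by length alone were picked as extremes after their values were seen.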

Additional observations from a re-analysis of the deposited data

Results flagged for a closer look

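In 48 groups of 4 libraries (the 4 named transcripts in each table that lists them, and the median level of the 212 transcripts in whole worms), a library was set against the other 3 by Dixon's criterion, and 10 groups held a library far from the rest. Chance marks about 1 in 20 groups.

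The median level of the 212 transcripts was 1.95 RPKM in *unc22* day 12 replicate 1 of the *mll1/2* whole-worm experiment and 2.45 to 2.55 RPKM in the other 3. SMED30020154 stood at 4.05 RPKM in a library of that same control group, against 2.24 to 2.52 RPKM, and at 2.95 RPKM in *set1* day 6 replicate 4, against 1.36 to 1.60 RPKM. The latter is in the group that gave its day 6 call. SMED30021748 stood at 2.65 RPKM in a day 9 control of the *mll1/2* experiment, against 1.46 to 1.60 RPKM, and at 1.98 RPKM in a day 9 control of the *set1* experiment, against 1.21 to 1.22 RPKM. SMED30001015 stood at 2.93 RPKM in a library of *mll1/2* day 9, against 0.660 to 1.02 RPKM, and at 1.71 RPKM in *set1* day 6 replicate 3, against 2.26 to 2.27 RPKM.

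In X1 cells of the *mll1/2* experiment, 3 such groups had 3 libraries at 0. SMED30021748 had 0.148 RPKM in a library of *mll1/2* day 9 and 0.154 RPKM in a day 9 control, which is 1 read each, and SMED30026828 had 0.700 RPKM in a day 12 control, which is 3 reads.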

How the results depend on the processing

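The count called higher at day 6 of *set1*(RNAi) in whole worms, 42, was 31 to 53 under the other settings, apart from 21 at an adjusted p below 0.01 (2.57% of all tested). Leaving out 1 library gave 26 to 37 at day 6 and 170 to 182 of 195 at day 9. Median scaling gave 53 higher and 1 lower, with 62.4% of all day 6 calls higher in place of 35.8%. While the count of the 212 went from 42 to 53, the share of all tested called higher went from 5.91% to 11.9%. Voom on recovered reads gave 31, with 23.2% of all day 6 calls higher and 4.4% of all tested called higher. With the replicate block the counts were 37 at day 6, 189 at day 9, 15 at *mll1/2* day 12 (14 without) and 3 at *mll1/2* day 9 (2 without). At *mll1/2* day 12 the 14 calls became 6 at an adjusted p below 0.01, 5 with only the 8 libraries compared, 59 with array weights (33 higher and 26 lower, when 17.5% of all tested were higher) and 8 to 16 without 1 library. The median of the 212 there, 0.05, changed sign under median scaling (-0.0036) and without *unc22* replicate 1 (-0.0046), the lowest of the values without 1 library, which reached 0.066. At *mll1/2* day 9 the 2 calls became 34 with array weights, where 11.3% of the 212 were called higher against 17.3% of all tested. They became 1 with only the 8 libraries compared, 0 at an adjusted p below 0.01, with no filter or with median scaling (16 of 212 had an unadjusted p below 0.05 in limma, and voom called 2), and 0 to 3 without 1 library. In X1 cells the 6 calls at day 6 became 3 at an adjusted p below 0.01, 3 by voom, 2 among transcripts with control means of at least 1 RPKM (a choice made after seeing the data) and 3 to 8 without 1 library. The 22 calls at day 9, among 32 tested, became 11, 18 and 7 in the same order, the 7 among 14 tested. Of all tested, 11.5% were called higher at an adjusted p below 0.01 and 16.5% by voom. With no filter there were 43 among 83 tested. The share of the 212 tested that was called higher was then 50.6%, in place of 65.6%, when 17.9% of all tested were higher. Leaving out 1 library gave 14 to 23. The causes were not tested. The rule itself gave 280 transcripts with a pseudocount of 0.1 (190 shared with the 212), 146 with 1 (134 shared), 245 after quantile normalisation (199 shared), 180 when X1 cells of both experiments counted, and 213 to 251 without 1 day 9 library (176 to 197 shared). No paired analysis of X1 cells was possible because their column names are those of the whole-worm samples, and the numbers in them were not tied to X1 samples. For 78 of the 212 the control libraries averaged below 20 reads.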
